A study of Mus musculus with 2 samples.

Results

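GATA4 peaks at AT-rich, CpG-poor promoter sequence are described, from chromatin immunoprecipitation followed by sequencing (ChIP-seq) of mouse liver. A peak was taken from the authors' optimal list when its summit lay within 1 kb of a protein-coding start site and the sequence within 250 bp of the summit had a GC content below 50%. The rule used position and base composition only. It kept 715 of the 24050 peaks on chromosomes 1 to 19 and X, which are called AT-rich promoter peaks here. The remaining promoter peaks, 4482 with a GC content of 50% or more, are called GC-rich promoter peaks. The 13289 peaks below 50% GC that lay farther than 1 kb from any start site are called AT-rich distal peaks.

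The series held 1 group of 2 samples, biological replicates 1 and 2 of whole liver from healthy adult mice, precipitated with an antibody against GATA4. No strain, genotype or treatment is given, the age is unknown and the sex was not collected. Both samples carry the same biosample and donor identifiers, and differences between them may therefore be technical. Whole liver mixes hepatocytes with endothelial, stellate, immune and bile duct cells, and the cell type behind a peak cannot be told apart in these data. The files hold peak lists and no read counts, so the depth of sequencing is unknown.

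GATA4 is a zinc-finger transcription factor that binds sequences with the core letters GATA. In liver it is known for its role in sinusoidal endothelium, the fenestrated lining of the capillaries, and it is also present in hepatocytes, where the blood proteins, bile acids and detoxifying enzymes are made. Promoters fall broadly into CpG islands, typical of genes used in most cells, and CpG-poor promoters, typical of genes restricted to few tissues.

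The summit windows below show what these peaks look like in sequence. Each window reaches 50 bases to either side of the summit and comes from the mm10 build (GRCm38.p6), written 5′ to 3′ on the strand of the nearest gene. Capitals mark every match to the GATA motif, on either strand. Its forms are AGATAA (reverse complement TTATCT), the form AGATAG (reverse complement CTATCT), the form TGATAA (reverse complement TTATCA) and the form TGATAG (reverse complement CTATCA). None of the windows overlaps an annotated untranslated region, and each summit lies outside annotated exons. The first set holds strong peaks upstream of liver genes, with 1 to 3 motif matches. It covers Pzp at chr6:128527300-128527400 (minus strand), Cyp17a1 at chr19:46673211-46673311 (minus strand), Leap2 at chr11:53423272-53423372 (minus strand), Hsd17b13 at chr5:103977504-103977604 (minus strand) and Nr5a2 at chr1:136960568-136960668 (minus strand), with summits 630, 89, 152, 144 and 170 bp upstream of the start site.
Pzp: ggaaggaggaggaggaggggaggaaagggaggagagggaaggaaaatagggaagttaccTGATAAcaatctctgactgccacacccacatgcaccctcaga
Cyp17a1: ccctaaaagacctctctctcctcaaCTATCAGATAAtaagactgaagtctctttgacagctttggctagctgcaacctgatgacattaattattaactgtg
Leap2: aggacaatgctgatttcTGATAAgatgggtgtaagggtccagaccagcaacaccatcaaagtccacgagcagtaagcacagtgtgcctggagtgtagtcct
Hsd17b13: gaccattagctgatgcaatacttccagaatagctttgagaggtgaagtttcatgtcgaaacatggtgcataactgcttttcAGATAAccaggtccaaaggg
Nr5a2: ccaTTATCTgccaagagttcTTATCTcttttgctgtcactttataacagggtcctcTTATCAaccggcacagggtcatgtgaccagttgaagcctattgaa

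The second set shows peaks of the gene groups described later. It covers Cyp3a13 at chr5:137921809-137921909 (minus strand), Cyp2c70 at chr19:40187293-40187393 (minus strand), Crp at chr1:172697545-172697645 (plus strand) and Bmp10 at chr6:87428673-87428773 (plus strand), all upstream of the gene.
Cyp3a13: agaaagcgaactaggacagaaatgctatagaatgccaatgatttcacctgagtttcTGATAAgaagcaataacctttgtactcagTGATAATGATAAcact
Cyp2c70: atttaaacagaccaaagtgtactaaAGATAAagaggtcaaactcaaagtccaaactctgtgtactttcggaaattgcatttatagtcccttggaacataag
Crp: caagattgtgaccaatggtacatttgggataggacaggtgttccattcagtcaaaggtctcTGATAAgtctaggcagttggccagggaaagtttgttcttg
Bmp10: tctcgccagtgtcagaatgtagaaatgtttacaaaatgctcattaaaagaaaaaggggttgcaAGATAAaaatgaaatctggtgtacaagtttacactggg

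The last set shows how widely the windows differ. Ttpa at chr4:20009070-20009170 (plus strand) has its summit 692 bp downstream of a GC-rich start site, and Nqo2 at chr13:33966724-33966824 (plus strand) is a strong peak with no match. Spopl at chr2:23572393-23572493 (minus strand) and Hc at chr2:35060560-35060660 (minus strand) are weak peaks with the most matches of all, in tandem repeats.
Ttpa: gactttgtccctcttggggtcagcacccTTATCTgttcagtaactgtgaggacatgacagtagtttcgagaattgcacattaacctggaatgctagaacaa
Nqo2: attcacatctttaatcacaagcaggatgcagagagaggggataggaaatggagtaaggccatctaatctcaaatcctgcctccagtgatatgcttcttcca
Spopl: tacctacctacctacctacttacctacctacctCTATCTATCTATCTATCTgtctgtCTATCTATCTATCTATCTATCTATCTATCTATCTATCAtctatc
Hc: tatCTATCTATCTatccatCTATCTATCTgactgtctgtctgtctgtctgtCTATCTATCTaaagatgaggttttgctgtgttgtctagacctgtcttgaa

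GC at the summit and GC at the start site often lay on different sides of the limit. The observed to expected CpG ratio within 250 bp of the summit had a mean of 0.364 at AT-rich promoter peaks, against 0.757 at GC-rich promoter peaks and 0.227 at AT-rich distal peaks. It was below 0.6 at 612 of the 715 (85.6%) and at 853 of 4482 GC-rich promoter peaks (19%). At the nearest start site itself, however, GC was below 50% for only 326 of the 715. The other 389 peaks lay in AT-rich sequence beside a start site with a GC content of 50% or more, and the mean GC of these start sites was 61.0%. By the CpG ratio, the label of CpG-poor promoters thus describes the sequence under most of the summits. At the nearest start site the same ratio had a median of 0.481, so more than 50% of the peaks had a start site below 0.6. GC, a different measure, was below 50% at the start site of fewer than 50% of the peaks. The median CpG ratio of the start site was 0.268 for the 326 peaks with a low-GC start site and 0.777 for the other 389. This split was made after the values were seen, and results are given for both groups where they differ.

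The 2 groups differed in where the summit lay. At low-GC start sites the summits gathered on the start site, with 145 of 326 (44.5%) within 100 bp of it and a median distance of 124 bp. Beside GC-rich start sites 16 of 389 (4.11%) were within 100 bp, and the median distance was 619 bp. GC was counted within 250 bp of the summit and of the start site, so the counted sequences overlap where the summit is near. The rule requires low GC at the summit, so the split itself places near summits mostly in the first group. Its part in these distances was not tested. Upstream positions were about as frequent in both groups, at 209 of 326 (64.1%) and 252 of 389 (64.8%). The summit lay in an annotated exon in 145 of the 715 and in coding sequence in 11.

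**Figure D1:**
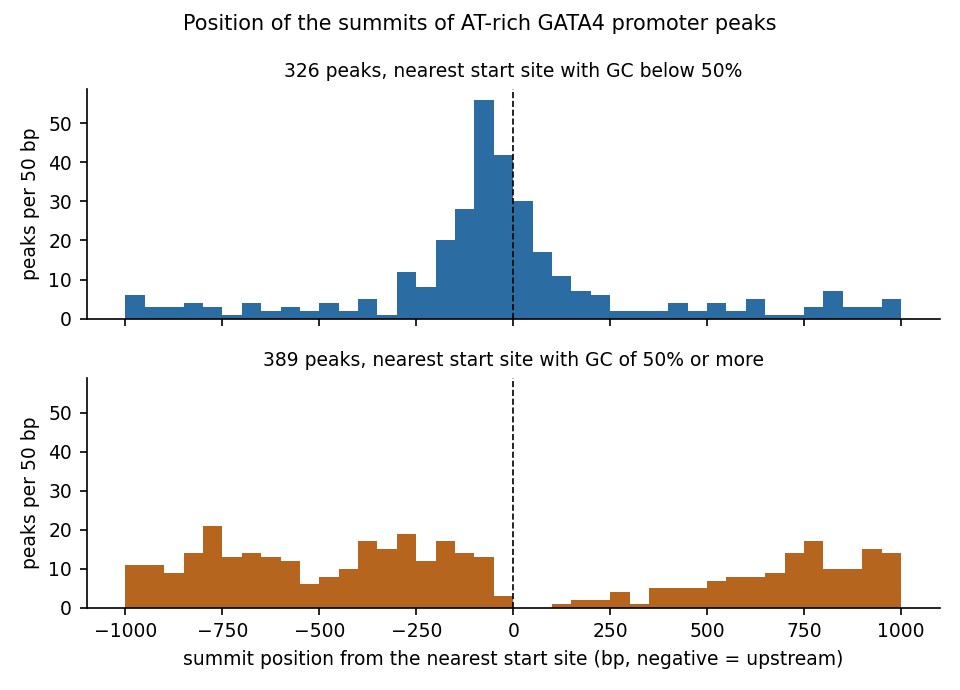
Position of each summit relative to the nearest start site, in bins of 50 bp, for the 326 peaks at start sites with GC below 50% (top) and the 389 beside start sites with GC of 50% or more (bottom). Summits of the first group pile up at and just upstream of the start site, with a median distance of 124 bp, while those of the second leave it nearly free, with a median distance of 619 bp. The split by GC at the start site itself favours near summits in the first group, because GC is low at every summit.

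Each peak had 1 protein-coding gene within 1 kb in 681 cases, 2 in 33 and 3 in 1. The nearest genes were 661 distinct ones, of which 47 had 2 peaks. Nqo2, which encodes a quinone reductase, had 4. Baat, which encodes the enzyme that joins bile acids to amino acids, had 3, and so did Cd47, which encodes the surface protein that restrains phagocytosis. Overlapping intervals account for some of these: 55 of the 715 overlapped another AT-rich promoter peak, and the 715 lay in 687 separate stretches. The 3 peaks at Cd47 overlap in this way and share 1 peak of replicate 1. Peaks are not replicates, so every p-value below describes these lists, and the 95% Wilson and Newcombe intervals cover counting error over peaks only.

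The 12 strongest AT-rich promoter peaks are given first, in order of signal. Values are the authors' signal scores, which have no unit. A peak has a rank in the optimal list, made with both replicates, and a score in each replicate's own relaxed list, which was not thresholded on reproducibility. The lists are on different scales, so only order within a list is compared. Pzp, which encodes a protease inhibitor of plasma, ranked 5 among the 24050 peaks with a signal of 311.9, and had 89.9 in replicate 1 and 222.3 in replicate 2. Cyp17a1, which encodes a hydroxylase of steroid synthesis, ranked 70 with a signal of 203.9, and had 78.1 in replicate 1 and 127.1 in replicate 2. These were the 2 highest of the 715 in each replicate's relaxed list.

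Soat2, the gene of a cholesterol-esterifying enzyme, ranked 147 and had a signal of 58.8 in replicate 1 and 121.3 in replicate 2. Leap2, the gene of a liver-derived peptide that blocks the ghrelin receptor, ranked 152, with 60.2 and 116.8 in replicates 1 and 2. Hsd17b4, the gene of an enzyme of peroxisomal fatty acid oxidation, ranked 202, with 60.2 in replicate 1 and 108.2 in replicate 2. These 3 genes take part in lipid or appetite biology, and their peaks stood near the top of both replicates' lists. Ino80c, which encodes a subunit of the INO80 chromatin remodeller, ranked 205 with 49.1 in replicate 1 and 111.4 in replicate 2. Hsd17b13, which encodes a lipid droplet protein of hepatocytes, ranked 263 with 42.0 and 113.3. Nr5a2, which encodes a nuclear receptor of bile acid and sterol metabolism, ranked 270 with 46.2 and 110.2. Its summit window, printed above, holds 3 GATA matches.

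Ttpa, the gene of the vitamin E transfer protein, ranked 304 with 39.1 in replicate 1 and 111.1 in replicate 2. Nqo2 followed at rank 337 with 27.4 in replicate 1 and 125.7 in replicate 2. Among the 12 strongest it was the lowest in replicate 1, the third highest in replicate 2, and the 1 peak without a GATA match. Its other 3 peaks ranked 2856, 14558 and 21160. Depdc1b ranked 444 with 40.5 and 97.0 in replicates 1 and 2, and Fmo1, the gene of a flavin-dependent drug oxidase, ranked 470 with 50.5 and 81.3. All 12 were in both replicates' thresholded lists.

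Liver metabolic genes were the largest named group. Of the 21728 protein-coding genes, 692 (3.18%) had a start site within 1 kb of an AT-rich promoter peak. The list of cytochrome P450 and conjugation genes, which oxidise and tag drugs, steroids and bile acids, had 21 of 57 (36.8%). Among the 37 of these with a low-GC start site 17 had such a peak (45.9%), against 359 of all 7293 genes with a low-GC start site (4.92%). The 7293 include 1443 olfactory and vomeronasal receptor genes, of which 4 had such a peak (0.277%), and these lower the share over all genes. The peaks of 17 of the 21 genes had a GATA match, those of 17 were in replicate 2's list and those of 5 in replicate 1's. The gene lists were chosen with earlier results of these data known and get no test. Neighbouring paralogs in the lists (Ces1, Cyp2c, Ugt2b) share sequence, and reads could be split between them.

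Fmo1 led this list. Ugt2b36, which encodes a glucuronosyltransferase, ranked 1965, with a signal of 32.7 in replicate 1 and 58.9 in replicate 2. Cyp3a13, a drug-oxidising P450 gene, ranked 3079, with 21.3 and 51.4. Cyp2c70, which encodes the enzyme that makes muricholic acids, ranked 5596, with 21.2 and 32.0. These 4 were in both replicates' thresholded lists, and the windows of Cyp3a13 and Cyp2c70 above hold 3 and 1 GATA matches. Counting by symbol, 13 of 99 Cyp genes (13.1%) had an AT-rich promoter peak, led by Cyp17a1. Cyp2c39 (rank 1807, with 36.2 and 56.2 in replicates 1 and 2) had no GATA match, and Cyp4x1 (rank 2913, with 25.2 and 49.9) had 2.

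Genes of lipid, bile acid and glucose metabolism had an AT-rich promoter peak at 11 of 51 (21.6%), all 11 among the 21 with a low-GC start site (52.4%). G6pc, whose product releases glucose from its phosphate, ranked 3470, with 16.5 in replicate 1 and 53.6 in replicate 2. The first peak of Baat ranked 3608, with 20.04 and 50.8. Both were in both replicates' thresholded lists. Abcb11, which encodes the bile salt export pump, ranked 8363, with 17.6 and 27.0, and the first peak of Lipc, the gene of hepatic lipase, ranked 9059, with 11.7 and 29.0. Those 2 were in replicate 2's list and not in replicate 1's. GATA matches were present at 10 of the 11 genes, and 10 were in replicate 2's list against 2 in replicate 1's.

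Amino acid catabolism and the urea cycle had 5 of 41 genes (12.2%), all 5 among 13 with a low-GC start site (38.5%). Kmo, the gene of kynurenine monooxygenase, ranked 4614 (23.0 in replicate 1, 41.2 in replicate 2) and was in both lists. Otc, the gene of the urea cycle enzyme ornithine transcarbamylase, ranked 5141. It had a signal of 53.2 in replicate 2 and no peak in replicate 1's relaxed list. Kynu (rank 11004) and Hgd (rank 17808), both of amino acid breakdown, were in neither and in replicate 2's thresholded list, respectively. Heme and iron genes had 2 of 20, Cpox (rank 2165, 26.4 and 57.7) and Fech (rank 8545, 4.29 and 41.2), which encode enzymes of heme synthesis. Both lay beside GC-rich start sites.

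Secreted liver proteins followed. Hepatocyte plasma protein genes had 6 of 43 (14.0%), and 5 of 19 with a low-GC start site (26.3%). Pzp led them, followed by Ttr, the transthyretin gene (rank 2847, 15.8 in replicate 1 and 58.4 in replicate 2), without a GATA match. Serpina6, the gene of the corticosteroid-binding globulin, ranked 3417 with 55.7 in replicate 2 and no peak in replicate 1's relaxed list. Ahsg, the fetuin-A gene, ranked 14329 with 28.3 in replicate 2 and likewise none in replicate 1. Coagulation and complement genes had 6 of 32 (18.8%), among them C1ra (rank 5508, 16.9 and 39.2), C1s1 (rank 7833, 15.3 and 29.7) and Pros1 (rank 8061, 17.9 and 28.8). These 3 were in both thresholded lists. Hc, the mouse gene of complement component C5, was not in the list under that symbol. Its peak ranked 21794 and was in neither replicate's list. Crp, the C-reactive protein gene, was the 1 acute phase gene of 15, at rank 2897 with 27.5 and 46.9, and was in both. By symbol, 4 of 61 serpin genes had a peak (6.56%), which besides Serpina6 were the neighbours Serpina3f, Serpina3i and Serpina3g, at ranks 6113, 6825 and 7510. Solute carriers had 13 of 385 (3.38%), close to the 3.18% of all genes, led by Slc2a9 (rank 1758), Slc17a4 (rank 3999), Slc7a2 (rank 4190) and Slc38a6 (rank 4592).

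Endothelial and other cell type lists were described in the same way. Sinusoidal endothelial genes had 4 of 28 (14.3%), and 2 of 10 with a low-GC start site (20%), of which Tfec, a transcription factor gene, ranked 6581 (15.1 in replicate 1, 36.1 in replicate 2) and was in both thresholded lists. Wnt9b, a ligand that sets liver zonation, ranked 12895 and Stab2, a scavenger receptor gene, 21837, both in replicate 2's list. Fcgr2b, an inhibitory antibody receptor gene, ranked 21886 and was in neither. By comparison 19 of these 28 genes had some promoter summit in the optimal list, whatever its GC, against 4909 of all 21728 genes (22.6%). General endothelial genes had 2 of 30 (6.67%), both among the 5 with a low-GC start site (40%), Erg (rank 3048, 24.5 and 50.1, both lists), an endothelial transcription factor gene with 2 overlapping peaks, and Lmo2 (rank 22347), a blood and endothelial cofactor gene. Liver transcription factors had 2 of 36, Nr5a2 and Nr1h4, the bile acid receptor gene (rank 12299). Stellate and mesenchymal genes had 2 of 25, Bmp10, a ligand of endothelial receptors (rank 3682, 28.1 and 39.2), and Hgf, the hepatocyte growth factor gene (rank 4630, 24.9 and 41.1), both in both lists. Cardiac genes had 1 of 19, Mef2c, a muscle and endothelial factor gene (rank 8383, 32.7 in replicate 2 and no peak in replicate 1's relaxed list).

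No AT-rich promoter peak lay at any of 24 Kupffer cell and macrophage genes, 14 cholangiocyte genes, 16 lymphocyte genes, 23 erythroid and megakaryocyte genes, 18 neuron genes, 24 ubiquitous genes or 110 keratin genes. Some other promoter summit was found at 18 of 24 ubiquitous genes (75%, against the 22.6% of all genes). For erythroid and megakaryocyte genes the count was 5 of 23 (21.7%), for cholangiocyte genes 1 of 14, and for keratin genes 1 of 110. It was 0 for macrophage, lymphocyte and neuron genes. AT-rich promoter peaks lay at only 3.18% of all genes, so finding none in lists of 14 to 24 genes says little. The same holds for the 13 macrophage genes with a low-GC start site, where the share over all such genes was 4.92%. Olfactory and vomeronasal receptor genes, known from sensory neurons, have a low-GC start site in 1443 of 1462 cases, and 4 of them had an AT-rich promoter peak (0.274%). The strongest of those was at Olfr987 (rank 7371), the next ones at Olfr978 (rank 12113), Olfr657 (rank 21208) and Olfr867 (rank 21568), and 0 of the 4 were in replicate 1's list.

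**Figure D2:**
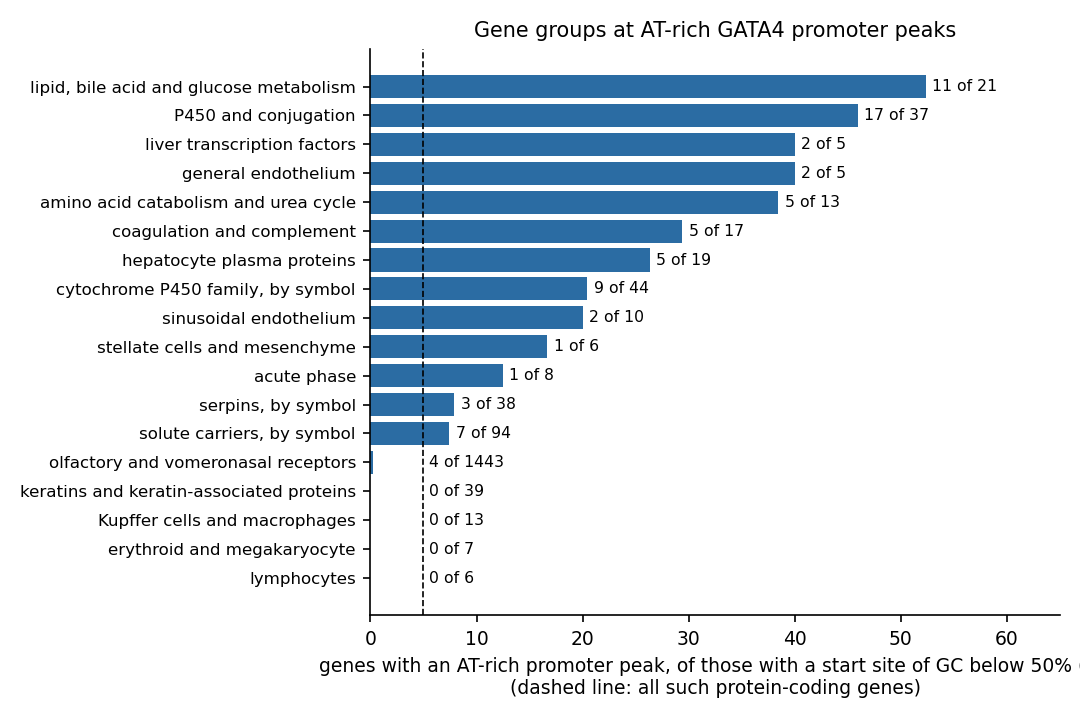
Share of genes with an AT-rich promoter peak among those that have a start site of GC below 50%, for each gene list with at least 5 such genes. The dashed line is the share over all such protein-coding genes, 4.92%, with olfactory and vomeronasal receptor genes included. Lipid, bile acid and glucose metabolism (11 of 21) and P450 and conjugation (17 of 37) had the highest shares, and 4 lists had none.

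Low-GC start sites were seldom occupied in the optimal list, and less often than GC-rich ones in replicate 2's list but not in replicate 1's. Without the receptor genes, 222 of 3622 genes whose start sites all have GC below 50% had any summit of the optimal list within 1 kb (6.13%, interval 5.39 to 6.96%). Among genes whose start sites all have a GC of 50% or more, 4008 of 14428 did (27.8%, 27.0 to 28.5%). In replicate 2's list the shares were 6.68% and 34.7%. Replicate 1's list gave 1.49% (1.14 to 1.94%) and 1.46% (1.28 to 1.67%), whose intervals overlap. Replicate 1's list is shorter, with 4287 peaks against 26314, and the part of its length in these shares was not tested.

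GATA motifs were frequent at AT-rich promoter summits, somewhat less so than at AT-rich distal summits and more so than at GC-rich promoter summits. A match lay within 50 bp of the summit at 416 of the 715 (58.2%, 54.5 to 61.7%), against 52.8% of all optimal peaks. The share was 64.6% at AT-rich distal peaks and 20.5% at GC-rich promoter peaks. The difference from GC-rich promoter peaks was 37.7 percentage points (33.8 to 41.4, two-sided Fisher's exact test, Benjamini-Hochberg adjusted over 16 motifs, p = 3.54e-88). Base composition differs by construction there, and the unrelated control motif (ATATGC or TTATGC) also differed, at 6.57% against 1.74%. In replicate 1's own list the GATA difference from GC-rich promoter peaks was 4.65 points (Fisher's exact test, p = 0.425), at a share of 65.9% of the 173 peaks that met the rule.

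Against distal peaks of the same GC rule the difference was -6.47 points (-10.2 to -2.81, adjusted p = 0.00448 by Fisher's exact test). Weighted to the same GC in strata of 5 points it was -5.67 points (Cochran-Mantel-Haenszel test over peaks, n = 715, p = 0.00245). For the 326 peaks at low-GC start sites it was -6.98 points (-12.5 to -1.67), and did not pass after adjustment (Fisher's exact test, adjusted p = 0.158). It was -12.8 points for peaks within 500 bp of the start site (Fisher's exact test, p = 1.67e-07), -4.00 points within 2.5 kb (p = 0.00285), and -11.1 points with a GC limit of 55% (p = 7.26e-16). Without replicate 2 it was -1.96 points and did not pass (p = 0.617, Fisher's exact test). The sign turned in the conservative list, at 1.30 points (Fisher's exact test, p = 0.655), and with a GC limit of 45%, at 1.52 points (p = 0.607). AGATAA alone, which is 1 of the 4 forms, was at 33.6% of AT-rich promoter peaks and 34.1% of distal ones, a difference whose interval was -4.00 to 3.09 points (adjusted p = 0.888 by Fisher's exact test).

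The motif was placed at the summit itself. In the window of the same length centred 500 bp upstream a GATA match was present at 15.0%, with 354 peaks having it only at the summit and 45 only upstream (two-sided exact McNemar test, adjusted over 16 motifs, p = 1.99e-59). Mean GC was 46.9% in the summit windows and 46.6% in the upstream ones. At 500 bp downstream the share was 15.7%. The groups with low-GC and GC-rich start sites had 57.7% and 58.6% at the summit, a difference of -0.94 points whose interval ran from -8.18 to 6.27 (Fisher's exact test, adjusted p = 0.937). Their upstream windows had 16.9% and 13.4%, and downstream windows 20.9% and 11.3%.

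**Figure D3:**
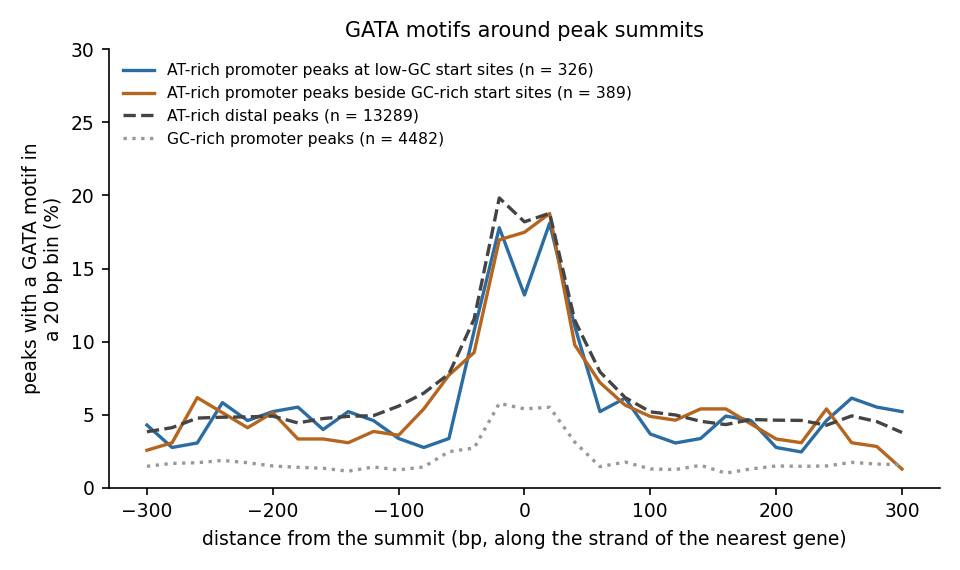
Share of peaks with a GATA match centred in each 20 bp bin from 300 bp upstream to 300 bp downstream of the summit, for AT-rich promoter peaks at low-GC and beside GC-rich start sites, AT-rich distal peaks and GC-rich promoter peaks. The first 3 lines rise to between 13.2% and 19.8% in the central 3 bins, the GC-rich promoter line to between 5.40% and 5.78%.

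Of the 535 matches in the 715 windows, 275 (51.4%) were centred within 20 bp of the summit, and 245 (45.8%) read GATA on the strand of the gene. There was 1 match in 324 peaks, 2 in 78 and 3 in 12. Spopl, a ubiquitin ligase adaptor gene, had 13 and Hc had 6, all but 1 of the form CTATCT in the repeats shown above. They ranked 22385 and 21794 in signal.

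Among AT-rich promoter peaks the GATA share was 55.3% within 100 bp of the start site, 46.9% beyond that up to 250 bp, 52.8% up to 500 bp and 66.8% up to 1000 bp. Over both start-site groups together, mean GC at the summit in these 4 distance classes was between 45% and 46%. The intervals of the first and last classes, 47.6 to 62.7% and 61.3 to 71.9%, overlapped slightly. That of the second class, 38.4 to 55.5%, lay below that of the last. Within 100 bp the share was 57.9% of 145 peaks at low-GC start sites (49.8 to 65.7%) and 31.3% of 16 beside GC-rich ones (14.2 to 55.6%). Over the 4 distance classes it was 57.9%, 51.3%, 52.8% and 67.7% in the first group and 31.3%, 39.6%, 52.8% and 66.5% in the second, and the difference between the groups was not tested. Mean GC at the summit was 45.2%, 44.9%, 43.9% and 43.4% in the first group. In the second it was higher in each class, at 48.8%, 47.8%, 46.0% and 45.5%, and the part of GC in these shares was not tested. Over all promoter peaks the GATA share fell with GC at the summit without a step at the limit, from 66.8% of the 220 with a GC of 40 to 45%, through 51.2% of the 430 at 45 to 50% and 44.7% of the 685 at 50 to 55%, to 9.22% of the 412 at 70 to 75%. Named at the GC limit were Vamp8 and Pacsin2 (GC 49.9%, ranks 1007 and 2613) inside and Pbld1 and Sema4b (GC 50.1%, ranks 143 and 438) outside. Peaks can share a GC value, so the ranks of these few do not describe all peaks near the limit. By distance, Plekhg2 at 999 bp and Ino80c at 996 bp lay inside and Zfp52 at 1003 bp outside.

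Motifs of other factors were tested in the same windows. The ETS core (AGGAAA, or the form AGGAAG, or the form CGGAAA, or the form CGGAAG), bound by a large family that includes endothelial factors such as ERG, was at 40.7% of AT-rich promoter summits and 25.7% of their upstream windows (exact McNemar test, adjusted p = 1.78e-08). In windows 1000 bp upstream it was at 29.5% (adjusted p = 6.66e-05), and in those 500 bp downstream at 30.2% (adjusted p = 0.000118, exact McNemar test). It was at 42.6% of GC-rich promoter peaks and 45.9% of distal ones, a difference from the latter of -5.2 points (Fisher's exact test, adjusted p = 0.0371). The nuclear receptor core AGGTCA was at 11.6%, against 6.01% upstream (exact McNemar test, adjusted p = 0.00119), 4.69% at GC-rich promoters and 13.6% at distal peaks. This sequence is bound by factors such as HNF4A and the retinoid and bile acid receptors.

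C/EBP sites (TTGCNNAA), bound by hepatocyte and myeloid factors, were at 6.43% of summits and 3.22% upstream (exact McNemar test, adjusted p = 0.0158). The NFI core (TTGGCA) was at 7.27% and 4.06% (exact McNemar test, adjusted p = 0.0242). These did not pass in the downstream windows (C/EBP at 5.45%, adjusted p = 0.539, and NFI at 4.90%, adjusted p = 0.133, exact McNemar test), nor did NFI 1000 bp upstream (4.48%, adjusted p = 0.0654). Over all optimal peaks C/EBP sites were at 5.87% and the NFI core at 7.73% of summits, and over AT-rich distal peaks at 7.68% and 9.05%. The FOX motif (TGTTTAC, or the form TGTTTGC, or the form TATTTAC, or the form TATTTGC) was at 9.09% of summits, 6.99% upstream (adjusted p = 0.255), 6.57% at 1000 bp upstream (adjusted p = 0.148) and 4.76% downstream (adjusted p = 0.00485, exact McNemar test). The longer HNF4 motif (CAAAGTCCA or CAAAGTTCA), which the windows of Leap2 and Cyp2c70 hold, was at 9 of 715 summits (1.26%) and 2 upstream windows (0.280%, exact McNemar test, adjusted p = 0.113).

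Core promoter sequences were compared last. The SP motif GGGCGG, bound by general activators at CpG islands, was at 4.06% of AT-rich promoter summits, 34.6% of GC-rich promoter summits and 1.71% of distal ones (Fisher's exact test against the distal peaks, adjusted p = 0.00109). The motif consists of G and C only, and GC at the summit defines the promoter classes, so their difference is a description without a test. CCAAT was at 15.5%, 14.7% and 13.4%, differences that did not pass the test (Fisher's exact test, adjusted p = 0.533 and 0.29). TATAAA was at 3.78% of summits, 1.12% of GC-rich promoter summits (Fisher's exact test, adjusted p = 3.30e-06) and 3.85% of distal ones. The motif consists of A and T only, so the rule bears on the first difference too. TATAAA was at 8.81% of windows 500 bp upstream (adjusted p = 0.000522), 7.13% at 1000 bp upstream (adjusted p = 0.0211) and 5.59% at 500 bp downstream (adjusted p = 0.174, exact McNemar test). The control motif was at 6.57% of summits and 6.01% upstream (exact McNemar test, adjusted p = 0.747). The E-box CAGCTG (6.01%), the AP-1 motif TGACTCA (2.38%), the HNF1 core GTTAAT (2.66%) and the CRE TGACGTCA (0.420%) did not differ from distal peaks past the threshold (Fisher's exact test, adjusted p between 0.29 and 0.692).

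**Figure D4:**
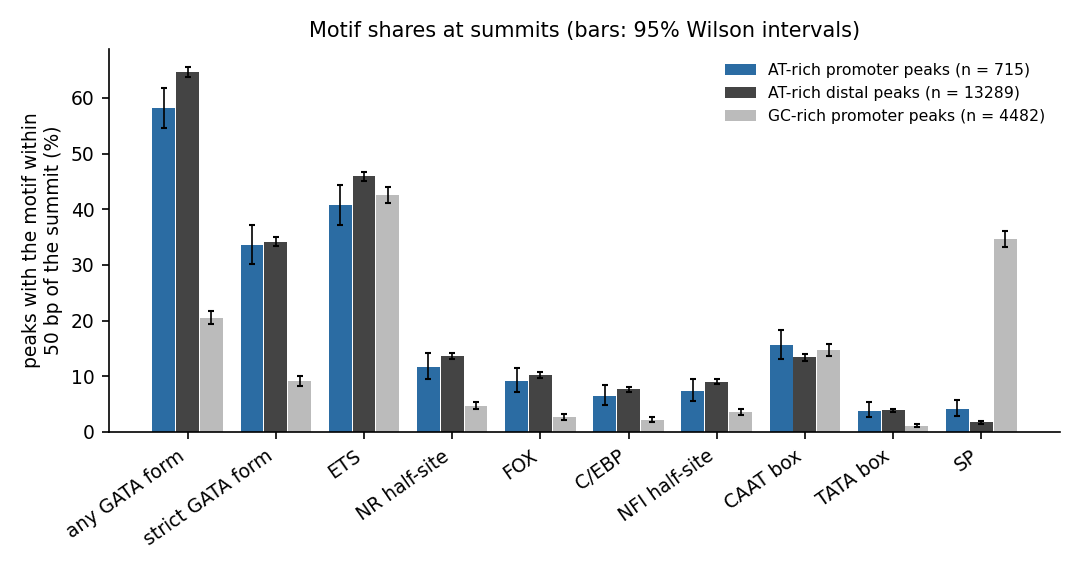
Share of peaks with each motif within 50 bp of the summit, with 95% Wilson intervals over peaks, in AT-rich promoter peaks, AT-rich distal peaks and GC-rich promoter peaks. The GATA share is 58.2%, 64.6% and 20.5% and the SP share 4.06%, 1.71% and 34.6% in that order; the strict GATA form is AGATAA.

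At low-GC start sites, GATA matches were more frequent where a peak lay. Within 100 bp upstream of the start site a match was found at 83 of the 299 distinct low-GC start sites with an AT-rich promoter peak (27.8%, 23.0 to 33.1%). It was found at 951 of 5449 low-GC start sites with no optimal summit within 1 kb, 1 per gene and without receptor genes (17.5%, 16.5 to 18.5%). The occupied sites were those nearest a summit, while the others were picked without reference to one. The part of this choice in the difference was not tested. The GC-rich start sites beside AT-rich promoter peaks had 24 of 376 (6.38%), and GC-rich start sites without a peak were not compared. Within 50 bp these 376 had a match in 7.18% of cases, against 7.88% of all start sites. At 20 to 40 bp upstream, where a TATA box stands, TATAAA was at 4.35% of the occupied low-GC start sites (2.56 to 7.30%) and at 4.94% of the unoccupied ones. A GATA match was there at 6.02% (3.84 to 9.31%) and 3.85%, with overlapping intervals. Within 50 bp of all 41220 start sites the ETS share was 32.8%, the AGGTCA share 4.20% and the SP share 26.5%.

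Signal in AT-rich promoter peaks spanned the whole optimal list. The lowest, median and highest signal were 8.02, 35.4 and 311.9, and 150 of the 715 were among the 20% of peaks with the highest signal (21%, 18.1 to 24.1%), against 20% of all peaks by construction. GC-rich promoter peaks had 11.8% there, a difference of 9.18 points (6.19 to 12.4, Fisher's exact test, p = 1.68e-10), and distal peaks 22.2% (p = 0.46, difference between -4.13 and 1.99 points). In the top 10% the share was 8.39%, against 11% of distal peaks, a difference of -2.65 points (Fisher's exact test, p = 0.0265). In the conservative list the difference from GC-rich promoter peaks turned, to -11.1 points (Fisher's exact test, p = 7.13e-05), and in replicate 1's own list it was 5.67 points (p = 0.217).

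Strong AT-rich promoter peaks carried GATA more often than weak ones. In successive classes of 20% of all peaks, from the highest signal to the lowest, the GATA share of AT-rich promoter peaks was 76.7%, 66.4%, 63.4%, 48.2% and 37.4%, and that of all peaks 76.1%, 59.9%, 50.5%, 44.8% and 32.7%. The ETS share did not follow the same order, at 39.3%, 50.7%, 45.5%, 36.9% and 32.3%. The median signal was 42.0 in the 416 with a GATA match and 29.2 in the 299 without. In replicate 1's relaxed list the medians were 12.6 and 9.10, and in replicate 2's 31.0 and 24.5. Both replicates therefore had the higher median on the same side. The top 20% by signal held 27.6% of peaks with a match and 11.7% of those without, a difference of 15.9 points (10.1 to 21.4, Fisher's exact test, p = 1.48e-07).

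The replicates differed in how many of these peaks passed their own thresholds. Replicate 1's thresholded list held 157 of the 715 (22.0%, 19.1 to 25.1%), against 17.0% of all optimal peaks. Replicate 2's held 567 (79.3%, 76.2 to 82.1%), against 82.5%. Both lists held 153, replicate 1's alone 4, replicate 2's alone 414 and neither 144. The authors' stricter conservative list held 319 (44.6%), against 38.2%. GC-rich promoter peaks were in replicate 1's list in 3.61% of cases, so that AT-rich promoter peaks were there more often by 18.3 points (15.4 to 21.6, Fisher's exact test, p = 1.15e-56), and in replicate 2's in 84.3%, so that AT-rich promoter peaks differed by -5.04 points (-8.33 to -2.02, p = 0.00106). AT-rich distal peaks did not differ past the threshold in either, at 23.3% (p = 0.414) and 80.2% (p = 0.564, Fisher's exact test), with intervals of the difference of -4.35 to 1.88 and -4.09 to 1.99 points.

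Peaks in both lists had a median rank of 3233 and a GATA match in 80.4% of cases, those in replicate 2's list alone 12284 and 54.3%, and those in neither 20005 and 45.1%. Over all optimal peaks the GATA shares of these 3 categories were 75.4%, 49.5% and 43.2%, and over AT-rich distal peaks they were 76.7%, 63.4% and 54.4%. A GATA match went with presence in replicate 1's list, at 30.3% of peaks with and 10.4% of peaks without one, a difference of 19.9 points (14.1 to 25.4, Fisher's exact test, p = 7.91e-11). For replicate 2's list the shares were 83.7% and 73.2% (p = 0.00101), and for the conservative list 55.3% and 29.8% (p = 9.58e-12, Fisher's exact test). Signal moves with both the motif and the lists, and its part in these differences was not tested. Low-GC and GC-rich start sites gave like shares in replicate 1's list, 22.7% and 21.3% (difference between -4.69 and 7.51 points, Fisher's exact test, p = 0.717).

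Relaxed lists, which hold 300000 peaks each and were not thresholded on reproducibility, contained 586 of the 715 in replicate 1 and 713 in replicate 2. Over the 585 found in both, the rank correlation of the 2 signal scores was 0.51 (Spearman's rho, a description across peaks, of which some overlap and share a replicate peak). The lowest, median and highest scores were 4.29, 10.8 and 89.9 in replicate 1 and 5.33, 28.0 and 222.3 in replicate 2. Otc, Serpina6, Ahsg, Wnt9b and Mef2c were among the peaks absent from replicate 1's relaxed list, with scores between 28.3 and 55.7 in replicate 2's.

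**Figure D5:**
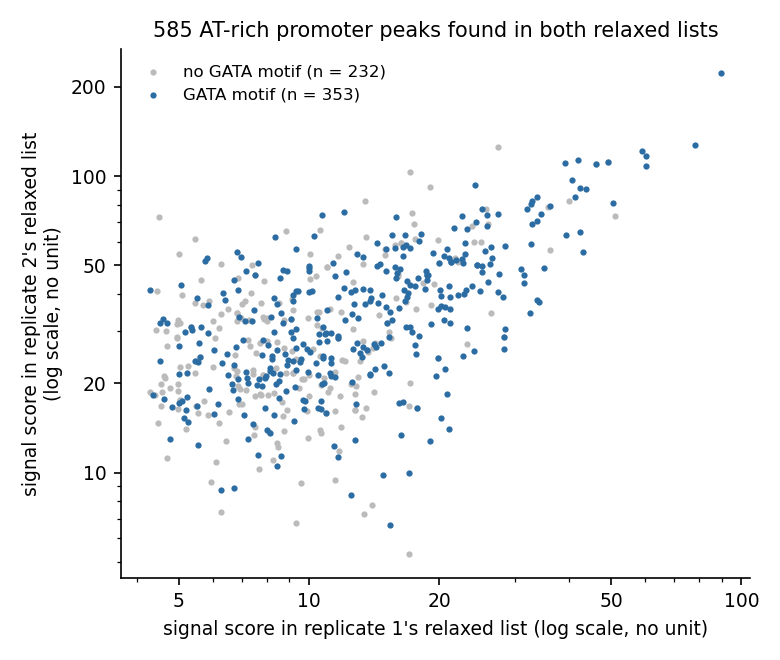
Signal score of the 585 AT-rich promoter peaks found in both relaxed lists, replicate 1 on the horizontal and replicate 2 on the vertical axis, both on log scales and without unit, with peaks that have a GATA match in blue. Scores rise together (Spearman's rho 0.51), Pzp stands at the upper right with 89.9 and 222.3, and peaks without a match lie mostly toward the lower left.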

How the data were processed

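GATA4 ChIP-seq of mouse liver in 2 samples was analysed from mm10 peak lists. The authors' lists give each peak a signal score without unit and an IDR (irreproducible discovery rate) score, on which lists were thresholded. The lowest score was 540 in the later of 2 runs, which stands for an IDR of 0.05. In the earlier run it was 537, which stands for an IDR slightly above 0.05. The optimal, conservative and relaxed lists come from an earlier run and the replicates' thresholded lists from a later run, per the README tables deposited beside each sample. The aligner and peak caller are unnamed (not given in the sources used here), and mm9 lists were not used. Depth per sample is unknown.

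Start sites were those of basic protein-coding transcripts of GENCODE M21. GC was counted within 250 bp of the summit in GRCm38.p6, motifs by exact match on both strands within 50 bp, and a peak was in another list when it shared at least 1 base with a peak there. Shares were compared over peaks with Fisher's exact test, a Cochran-Mantel-Haenszel test in GC strata of 5 points, or the exact McNemar test between windows of a peak, with Benjamini-Hochberg adjustment over 16 motifs. All tests were two-sided at 0.05. Scripts used Python 3.11.15, numpy 2.4.6, pandas 2.3.3, scipy 1.17.1, statsmodels 0.14.6 and matplotlib 3.10.9, and were tested on simulated data. Named genes were the 12 peaks of highest signal, at most 4 genes per list by signal, the peaks with most GATA motifs and those nearest each limit, of which a few are not reported here. The peaks and gene lists were chosen with earlier results of these data known. Alternatives changed the GC and distance limits, the list, the IDR, the motif, the window, the overlap and the signal class.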

Additional observations from a re-analysis of the deposited data

How the results depend on the processing

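Of the recomputed main results, 143 kept their direction and call or size, 31 shares or counts moved, 9 differences no longer passed the threshold, 4 newly passed it and 13 changed sign. Limits on the rule moved the count of AT-rich promoter peaks to 285 (GC limit 45%), 1400 (55%), 414 (start site within 500 bp), 1449 (within 2.5 kb) and 322 (conservative list). The GATA share was 68.8% at the 45% limit, 51.6% at 55%, 51.9% within 500 bp, 73.6% in the conservative list, 65.2% at an IDR of 0.01, 33.6% for AGATAA alone and 70.9% within 100 bp of the summit. The share in replicate 1's list was 28.1% at the 45% limit, 16.6% at 55%, 48.8% in the conservative list and 32.1% at an IDR of 0.01. The share in replicate 2's list was 74.7% at the 45% limit, 82.6% with a CpG ratio below 0.4, 95.7% in the conservative list, 84.6% in the later run's list, 92.5% at an IDR of 0.01, 73.7% with at least 50% of the peak covered and 74.8% with summits within 100 bp. The top 20% by signal held 14.6% in the conservative list and 31.4% at an IDR of 0.01, and the top 10% 8.39%.

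Differences from AT-rich distal peaks changed sign, size or call. For GATA the difference was 1.52 points at the 45% limit, 1.30 in the conservative list and -0.54 for AGATAA alone, but -12.8 within 500 bp of a start site, -11.1 at the 55% limit, -8.78 with GC counted within 500 bp and -8.20 in the later run's list. For replicate 1's list it was 2.07 at the 45% limit, -4.88 at 55% (p = 1.25e-05, Fisher's exact test) and 1.69 in the conservative list. For replicate 2's list it was 0.518 with a CpG ratio below 0.4, -2.96 within 2.5 kb, 0.939 in the conservative list and 1.09 for low-GC start sites only. For the top 20% it was 2.60 at the 45% limit, -2.37 at 55% and 0.853 with the CpG ratio, and for the top 10% -2.65. Against GC-rich promoter peaks, replicate 2's list no longer differed past the threshold with a CpG ratio below 0.4 (-1.28), in the conservative list (-1.69), at an IDR of 0.01 (-1.82), with at least 50% of the peak covered (-2.51) or for low-GC start sites only (-3.05). The top 20% turned to -11.1 points in the conservative list. The cause of these changes was not tested.

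In replicate 2's own list and in replicate 1's own list the rule gave 719 and 173 peaks, with GATA shares of 56.7% and 65.9%. The share in the other replicate's list was 22.5% for replicate 2's peaks and 92.5% for replicate 1's. In the same order, GATA minus GC-rich promoter peaks was 40.2 and 4.65 points, GATA minus distal peaks -7.64 and -1.96, the top 20% minus GC-rich promoter peaks 7.73 and 5.67, and the top 20% minus distal peaks -1.74 and 2.34. Presence in the other list minus distal peaks was 0.0394 points for replicate 2's peaks and 2.10 for replicate 1's.

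The split by start-site GC (326 and 389 peaks) and the count of only the strongest of overlapping peaks were chosen after seeing the data, and the latter changed no direction or call. No paired analysis was possible because there is a single group. Both samples share their identifiers, peaks are not replicates, and depth is unknown, so a peak missing from replicate 1's shorter list was not detected there and is not shown to be absent.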
